A study of Mus musculus with 8 samples.

Results

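This section describes the transcripts of carbohydrate response element-binding protein (ChREBP), of its glucose targets and of the enzymes and carriers of fructose in pancreatic islets of 4 βUCP2Tg and 4 WT samples. Every probe whose gene symbol in the deposited table was *Mlxipl*, *Mlx*, *Mlxip*, *Txnip*, *Arrdc4*, *Khk*, *Sord*, *Slc2a5* or *Akr1b3* was taken. That rule gave 18 probes of these 9 genes, out of 56605 probes with a value and 26894 gene symbols on the array. βUCP2Tg mice carry a mouse *Ucp2* cDNA behind the rat *Ins2* promoter and a rabbit β-globin intron, on a C57BL6/J background, so the transgene is driven in the β-cells and not in the other cells of an islet. WT mice were their littermates without the transgene. All samples were islets of male mice. Islets were taken at an age of 8 to 12 weeks, which the labels do not repeat for each sample. Islets of both genotypes had been kept for 8 h in medium with 200 mg/dL glucose, which equals 11.1 mmol/L, so there was no low-glucose arm in which a response to glucose could be read. No source used here says how many mice gave the islets of a sample, so n, SD and p count samples, and their spread may be partly technical.

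ChREBP, the product of *Mlxipl*, is a transcription factor that becomes active when glucose metabolites build up in a cell. It binds DNA as a dimer with Mlx at carbohydrate response elements, and MondoA, the product of *Mlxip*, is its close relative and shares the partner Mlx. *Txnip* and *Arrdc4* encode α-arrestins that curb glucose uptake and are among the best known glucose-induced targets of these factors in β-cells. Fructose enters cells through the carrier encoded by *Slc2a5* (GLUT5) and is phosphorylated by ketohexokinase (*Khk*), while the polyol route makes fructose from glucose through aldose reductase (*Akr1b3*) and sorbitol dehydrogenase (*Sord*).

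A carbohydrate response element is usually written as a pair of E-box-like CACG boxes, and the promoters of the members were searched for it because the list is built around the factor that binds it. Promoter sequences were from RefSeq (assembly GRCm38.p6), with 250 bases before and 50 bases after each start site, and 8 of the 9 genes were found there with 9 promoters. *Akr1b3* was the gene without an entry. The motif CACGNNNNNNNCACG, read on both strands, was in 0.615% of all 32851 promoters in the table and, among the members, in that of *Txnip*. The palindrome CACGTG, a single E-box, was in 7.15% of all promoters and in those of *Mlx*, *Arrdc4*, *Khk* and the upstream of 2 *Mlxipl* start sites, which lie 17001 bases apart. A match is a description of letters, and no match says only that these letters were not in the window. The 250 bases upstream of the start sites of both glucose targets and of the upstream *Mlxipl* start site are shown 5′ to 3′, with the matched letters in capitals.
Txnip, chr3:96557707-96557956, plus strand: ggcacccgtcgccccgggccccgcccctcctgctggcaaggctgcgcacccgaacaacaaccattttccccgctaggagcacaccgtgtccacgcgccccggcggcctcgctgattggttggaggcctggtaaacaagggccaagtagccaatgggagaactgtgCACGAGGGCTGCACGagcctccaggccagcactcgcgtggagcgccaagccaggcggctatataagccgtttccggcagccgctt
Arrdc4, chr7:68749239-68749488, minus strand: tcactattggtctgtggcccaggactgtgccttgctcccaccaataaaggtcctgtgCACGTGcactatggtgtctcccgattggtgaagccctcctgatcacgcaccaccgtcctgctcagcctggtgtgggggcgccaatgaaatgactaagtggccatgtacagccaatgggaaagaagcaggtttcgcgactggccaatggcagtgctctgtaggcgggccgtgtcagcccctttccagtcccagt
Mlxipl, chr5:135089640-135089889, plus strand: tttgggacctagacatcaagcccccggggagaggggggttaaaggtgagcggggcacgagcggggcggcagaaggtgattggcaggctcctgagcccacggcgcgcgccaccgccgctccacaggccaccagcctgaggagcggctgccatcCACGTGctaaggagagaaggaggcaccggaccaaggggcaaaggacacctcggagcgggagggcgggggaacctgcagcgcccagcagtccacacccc
In the *Txnip* promoter the paired boxes spanned 85 to 71 bases before the start site. The E-box of *Arrdc4* began 193 bases before its start site and that of *Mlxipl* 98 bases before it.

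Signals are given on the log2 scale, as log2 of the background-subtracted intensity minus the 75th percentile of the same array. Signals of different probes are not compared, since a probe's brightness also depends on its sequence. A probe was tested with limma when at least 4 of the 8 arrays read it well above background, which left 35363 probes. A probe was called when its adjusted p was under 0.05 and its fold change was over 1.5. The median log2 fold change over all tested probes was -0.02, and the middle 50% lay between -0.25 and 0.18. *Ucp2* checked the labels: probe A_51_P297105 read 7.38 ± 0.31 in βUCP2Tg and 1.15 ± 0.23 in WT islets (mean ± SD, n = 4 each). Its other probe, A_52_P90265, read 0.85 ± 0.06 and 0.41 ± 0.22 and was not called (log2 fold change 0.44, limma adjusted p = 0.0987), with no overlap between the genotypes. The 10 β-cell markers examined were all tested, and *Ins1* and *Ins2* passed the background limit on all 8 arrays. Each genotype filled its own row of the slide, and position and genotype cannot be told apart. Markers of pancreatic acinar cells were uneven among the islet samples: the mean signal of the 12 tested acinar markers ranged from -1.07 to 3.34 in βUCP2Tg and from -0.60 to 4.12 in WT. Genes that low oxygen induces ranged from 1.27 to 2.75 in βUCP2Tg and from 2.19 to 3.19 in WT, with βUCP2Tg 4 and WT 1 nearest to the other genotype. In such bulk samples, fewer cells of a type and less RNA per cell cannot be told apart.

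All 18 member probes were well above background on all 8 arrays, and none was called in either direction. Over all tested probes, 0.206% were called higher and 0.204% were called lower in βUCP2Tg. The largest differences were those of *Txnip*, *Sord* and a dim probe of *Mlxip*. At an unadjusted limma p under 0.05, 7 of the 18 probes were higher and 3 were lower, beside 9.99% and 15.2% of all tested probes. The 4 βUCP2Tg values lay above all 4 WT values for 3 of the 18 probes, of *Txnip*, *Sord* and *Akr1b3*, and below them for 0, beside 5.25% and 7.17% of all tested probes. Taking the brightest probe of each gene, 6 genes had a higher mean in βUCP2Tg and 3 had a lower one, with a median log2 fold change of 0.26. Over all 18 probes, 9 were higher and 9 lower, with a median of 0.06, beside 46.8% of all tested probes that were higher. Adjusted p-values of the 18 probes ran from 0.0885 to 0.864.

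**Figure D1:**
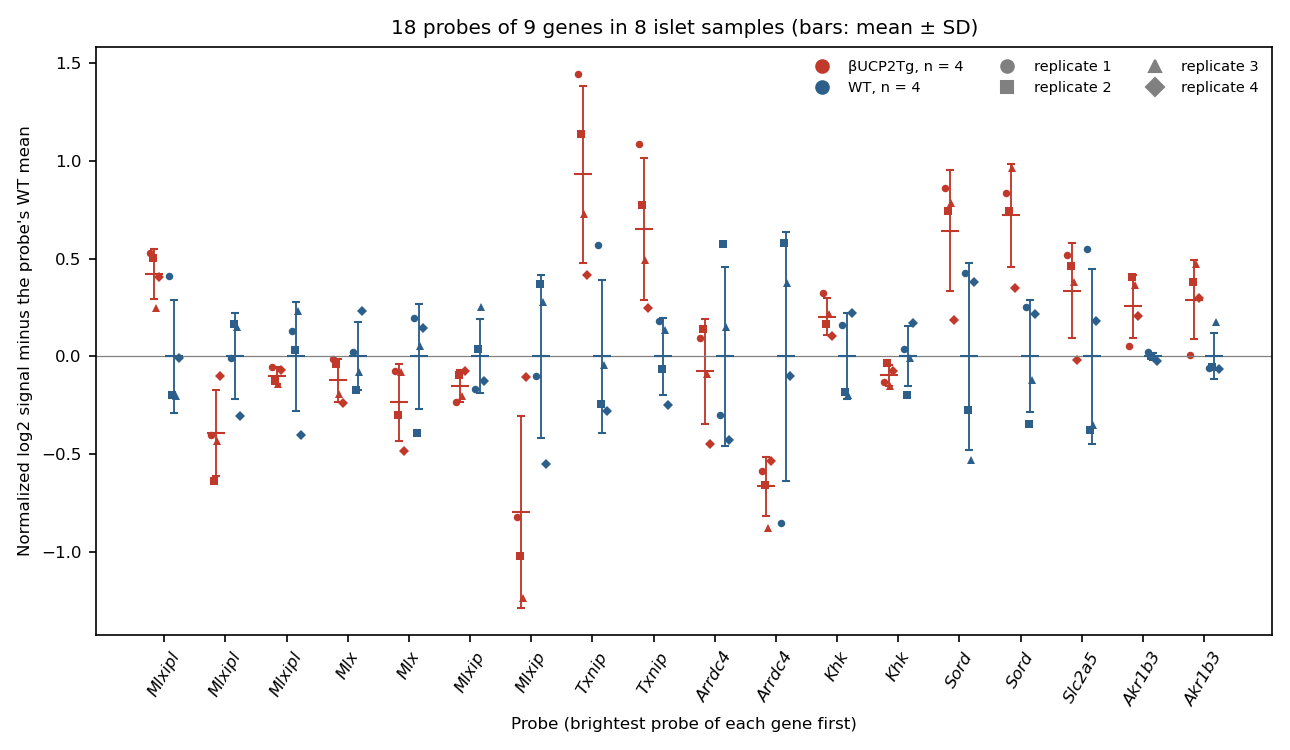
Normalized log2 signal of each of the 18 member probes on each array, minus the mean of the 4 WT arrays for that probe (vertical axis, log2 units), with the brightest probe of each gene first. Points are arrays, with the replicate number as the symbol, and bars are mean ± SD of 4 arrays. The red βUCP2Tg points of *Txnip* and *Sord* sit mostly above the blue WT points, while those of *Mlx*, *Khk* and the brighter *Arrdc4* probe are mixed among them and those of the dimmer *Arrdc4* probe sit mostly below.

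*Txnip* encodes thioredoxin-interacting protein, which binds thioredoxin and is induced by glucose. Its brighter probe, A_66_P131361, read 4.91, 4.60, 4.19 and 3.88 in βUCP2Tg 1 to 4 and 4.03, 3.22, 3.42 and 3.18 in WT 1 to 4. The groups overlapped because βUCP2Tg 4 was below WT 1, and the other βUCP2Tg arrays were above every WT array. The mean was 4.39 ± 0.45 in βUCP2Tg and 3.46 ± 0.39 in WT (SD, n = 4 each), a log2 fold change of 0.93 (SE 0.26, 95% confidence interval 0.32 to 1.54), or 1.91-fold. Its adjusted p in limma was 0.103. The second probe, A_55_P2006255, read 0.30, -0.02, -0.30 and -0.54 in βUCP2Tg and -0.61, -0.85, -0.66 and -1.04 in WT, so that its groups did not overlap. Its log2 fold change was 0.65 (SE 0.19, limma adjusted p = 0.106). On both probes βUCP2Tg 4 was the lowest βUCP2Tg array and WT 4 the lowest WT array.

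The *Txnip* differences did not pass the test with all arrays, and the result turned on single arrays. Without WT 1 the brighter probe was called higher, at a log2 fold change of 1.12 and a limma adjusted p of 0.0272. Without βUCP2Tg 4 it was at 1.10 with an adjusted p of 0.0520, and the second probe was called at 0.78 and an adjusted p of 0.0496. With either array left out many more probes were called over the whole array: 0.994% higher and 3.19% lower without βUCP2Tg 4, and 5.14% higher and 5.67% lower without WT 1. On the arrays left out, the mean signals of the low-oxygen genes were 2.75 for βUCP2Tg 4 and 2.19 for WT 1. The part of these genes in the *Txnip* difference was not tested.

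*Arrdc4*, the second α-arrestin target, had a lower mean in βUCP2Tg with both probes, and neither was called. Probe A_66_P122074 read 0.81, 0.86, 0.63 and 0.27 in βUCP2Tg and 0.42, 1.29, 0.87 and 0.29 in WT. The groups overlapped fully, with a log2 fold change of -0.08 (SE 0.24, 95% confidence interval -0.62 to 0.47, limma adjusted p = 0.864). Its direction turned on single arrays, at 0.05 without βUCP2Tg 4 and 0.12 without WT 2, against -0.22 without WT 4. Probe A_55_P2504175 read -0.19, -0.26, -0.48 and -0.13 in βUCP2Tg and -0.45, 0.98, 0.78 and 0.30 in WT. WT 1 lay among the βUCP2Tg arrays, and the other WT arrays lay above all of them. This probe differed by -0.67 (SE 0.29, limma adjusted p = 0.196), and without WT 1 it was called lower at -0.95 (adjusted p = 0.0201). The probes of *Arrdc4* have different sequences, whose first 30 bases are shown because their readings differ. Where the probes lie in the gene's transcripts was not examined. Neither probe shared a run of 16 bases with a probe of another gene, beside 19.4% of the 56689 probes with a sequence in the deposited table that did.
A_66_P122074: tcccttcccctggagcacaactttactttc
A_55_P2504175: catcagagtggactactccttagctgtaat

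Among the regulators, *Mlxipl* itself gave readings in opposite directions. Its brightest probe, A_55_P2119957, read 6.21, 6.19, 5.93 and 6.09 in βUCP2Tg and 6.10, 5.48, 5.48 and 5.67 in WT. WT 1 read as high as the βUCP2Tg arrays, and the other WT arrays were below all of them. The log2 fold change was 0.42 (SE 0.15, 95% confidence interval 0.07 to 0.77, limma adjusted p = 0.145). Probe A_55_P2045158 read 1.25, 1.02, 1.22 and 1.55 in βUCP2Tg and 1.65, 1.82, 1.80 and 1.35 in WT, a difference of -0.39 (SE 0.15, limma adjusted p = 0.158). Probe A_55_P2728555 differed by -0.10 (SE 0.14, limma adjusted p = 0.691), and by -0.05 without WT 1, -0.02 without WT 3 and -0.23 without WT 4.

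The dimmer *Mlxipl* probes hold sequence that recurs on the array, and the brightest does not. Runs of 16 bases of A_55_P2728555 were found, on either strand, in 21 probes that do not carry the *Mlxipl* symbol, and runs of A_55_P2045158 in 6. The brightest probe had 0 such matches. A stretch of 30 bases of each is given, with the shared bases in capitals. The gene's readings from the dimmer probes could hold other transcripts, and this was not tested.
A_55_P2119957: ggcatcttgcatgaatgtagatgtgtgtgt
A_55_P2045158: tgaTGCACACCTTTAATCCCAGTACTTGgg
A_55_P2728555: ctctACTACACAGAGAAACCCTGTCTCAAA

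*Mlx*, the shared partner, read 0.57, 0.55, 0.40 and 0.35 in βUCP2Tg and 0.61, 0.42, 0.51 and 0.82 in WT with its brighter probe, A_51_P261443. The groups overlapped, and the difference was -0.12 (SE 0.11, 95% confidence interval -0.38 to 0.14, limma adjusted p = 0.529), and it was -0.04 without WT 4. The dimmer probe of *Mlx*, A_66_P117739, differed by -0.24 (limma adjusted p = 0.380), and by -0.15 without βUCP2Tg 4 and -0.37 without WT 2. *Mlxip*, which encodes MondoA, read -0.93, -0.79, -0.90 and -0.77 in βUCP2Tg and -0.86, -0.66, -0.44 and -0.82 in WT with A_51_P246727. That difference was -0.15 (SE 0.11, 95% confidence interval -0.41 to 0.11, limma adjusted p = 0.430), and it was -0.07 without WT 3. Its dim probe, A_66_P102574, read -4.82, -5.02, -5.24 and -4.11 in βUCP2Tg and -4.10, -3.63, -3.72 and -4.55 in WT, a difference of -0.80 (SE 0.28, limma adjusted p = 0.141). With this probe, βUCP2Tg 4 read like WT 1 and WT 4 was lower than either.

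**Figure D2:**
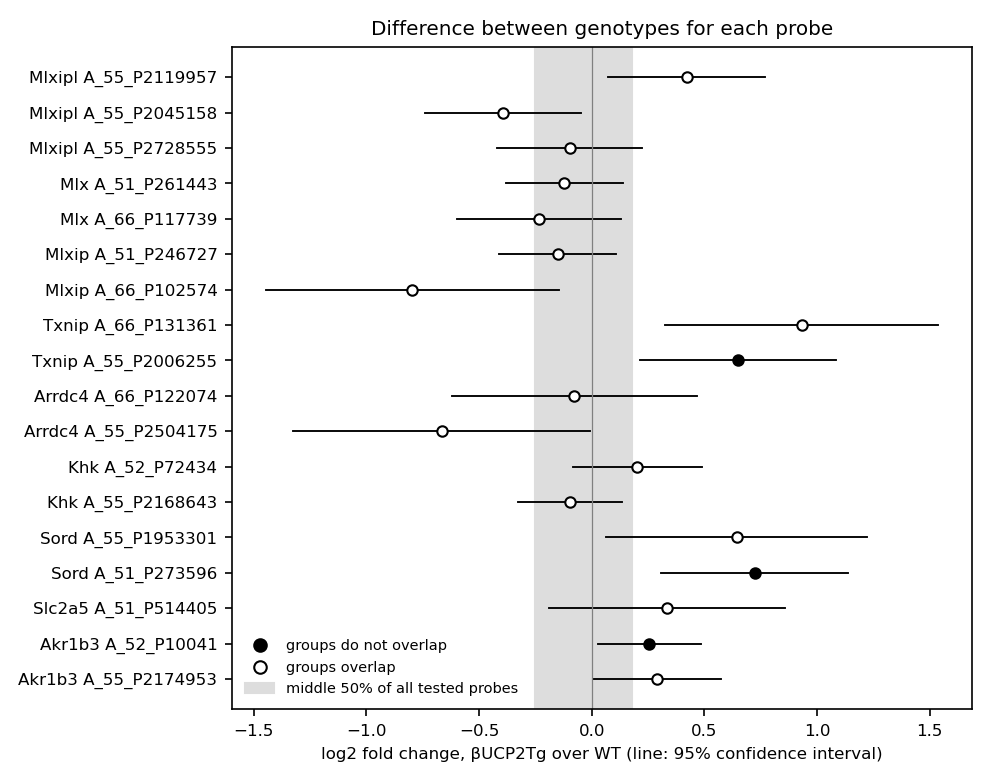
Log2 fold change of each member probe, βUCP2Tg over WT (horizontal axis), with its 95% confidence interval from limma. Filled points are probes whose groups do not overlap, and the grey band is the middle 50% of all tested probes. Both *Txnip* and both *Sord* probes lie to the right of the band, and the 3 *Mlxipl* probes lie on both sides of 0.

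Sorbitol dehydrogenase, which oxidises sorbitol to fructose, had a higher mean in βUCP2Tg with both of its probes. Its *Sord* probe A_51_P273596 read -1.02, -1.11, -0.89 and -1.50 in βUCP2Tg and -1.60, -2.20, -1.97 and -1.63 in WT. Every βUCP2Tg array was above every WT array, with βUCP2Tg 4 close to WT 1 and WT 4. The log2 fold change was 0.72 (SE 0.18, 95% confidence interval 0.31 to 1.14), or 1.65-fold, with a limma adjusted p of 0.0885, the lowest among the members. The brighter probe, A_55_P1953301, read 0.29, 0.17, 0.21 and -0.39 in βUCP2Tg and -0.15, -0.85, -1.11 and -0.19 in WT. βUCP2Tg 4 was below WT 1 and WT 4 there, and the difference was 0.64 (SE 0.25, limma adjusted p = 0.165). A_51_P273596 was called higher without βUCP2Tg 4 (log2 fold change 0.85, limma adjusted p = 0.0411) and without WT 1 (0.81, adjusted p = 0.0326).

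Aldose reductase (*Akr1b3*) makes the sorbitol that *Sord* uses. Probe A_52_P10041 read 3.58, 3.94, 3.90 and 3.74 in βUCP2Tg and 3.55, 3.53, 3.53 and 3.51 in WT. The WT arrays were nearly equal, with an SD of 0.019, and all of them were below the βUCP2Tg arrays, of which βUCP2Tg 1 was closest. The log2 fold change was 0.26 (SE 0.10, 95% confidence interval 0.03 to 0.49, limma adjusted p = 0.165), or 1.19-fold. Probe A_55_P2174953 differed by 0.29 (SE 0.12, limma adjusted p = 0.190), and WT 3 stood apart on it.

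The remaining members are the carrier and the kinase. *Slc2a5*, with 1 probe, read 5.998, 5.94, 5.86 and 5.46 in βUCP2Tg and 6.03, 5.10, 5.13 and 5.66 in WT. WT 1 was the highest of all arrays, and the difference was 0.34 (SE 0.23, 95% confidence interval -0.19 to 0.86, limma adjusted p = 0.386). It was 0.52 without WT 1, 0.21 without WT 2 and 0.22 without WT 3. Ketohexokinase (*Khk*) read 2.06, 1.90, 1.95 and 1.83 in βUCP2Tg and 1.89, 1.55, 1.53 and 1.95 in WT with its brighter probe, A_52_P72434. The groups overlapped, and the difference was 0.20 (SE 0.12, 95% confidence interval -0.08 to 0.49, limma adjusted p = 0.340). The other *Khk* probe differed by -0.10 (95% confidence interval -0.33 to 0.13, limma adjusted p = 0.571), and by -0.16 without WT 2 and -0.04 without WT 4.

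Markers of other pancreatic cells and low-oxygen genes also differed among the arrays. WT 2 and WT 3 had the highest acinar means, 3.54 and 4.12, and they held the 2 lowest readings of *Slc2a5* and of both *Sord* probes. All 12 tested acinar markers had a lower mean in βUCP2Tg, with a median log2 fold change of -1.81, and none was called. The acinar transcription factor gene *Ptf1a* stayed near background on all 8 arrays, while *Cela2a* was read well above it on all 8. WT 4 had an acinar mean of -0.60, among the values of βUCP2Tg 1 to 3, and its *Txnip* reading of 3.18 was below all βUCP2Tg readings. Its *Sord* readings of -0.19 (A_55_P1953301) and -1.63 (A_51_P273596) were below those of βUCP2Tg 1 to 3 and next to those of WT 1. βUCP2Tg 4 had an acinar mean of 3.34, and its *Txnip* reading of 3.88 was above those of WT 2, WT 3 and WT 4. The *Sord* readings of βUCP2Tg 4 were -0.39 (A_55_P1953301), below WT 1 and WT 4, and -1.50 (A_51_P273596), above every WT array. Its *Slc2a5* reading of 5.46 was below those of WT 1 and WT 4 and above those of WT 2 and WT 3. Of the 12 low-oxygen genes, 10 had a lower mean in βUCP2Tg, with a median of -1.25. The mean signal of 7 markers of the other islet endocrine cells (alpha, delta and PP cells) was 4.75 to 4.88 in βUCP2Tg and 4.30 to 4.60 in WT, so that the genotypes did not overlap. Of these 7 genes, 6 had a higher mean in βUCP2Tg, with a median log2 fold change of 0.27, and none was called. The groups did not overlap for 3 of the 7, beside 5.25% of all tested probes that were higher without overlap. The mean of the 10 β-cell markers was 5.07 to 5.41 in βUCP2Tg and 5.04 to 5.56 in WT. Of these 10 genes, 6 had a lower mean in βUCP2Tg, with a median of -0.08 and none called. The mean of the 5 tested ductal markers was -1.24 to -0.35 in βUCP2Tg and -0.47 to 0.35 in WT, with 4 genes lower, a median of -0.88 and none called. The part of these lists in the members' differences was not tested.

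**Figure D3:**
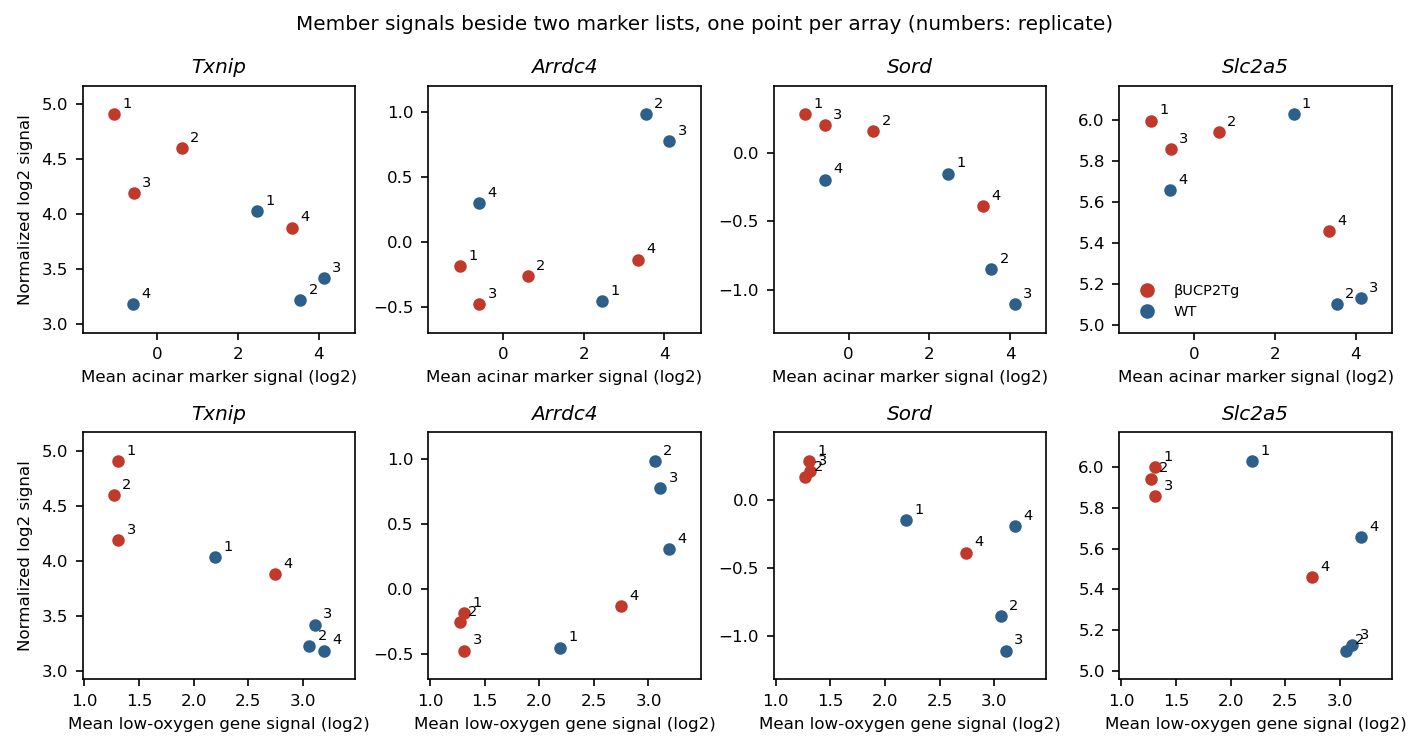
Normalized log2 signal of *Txnip* (A_66_P131361), *Arrdc4* (A_55_P2504175), *Sord* (A_55_P1953301) and *Slc2a5* on each array (vertical axes), against the mean log2 signal of 12 acinar markers (upper row) or 12 low-oxygen genes (lower row). Points are arrays with their replicate number, red for βUCP2Tg and blue for WT. βUCP2Tg 1 to 3 lie together at a low-oxygen mean of 1.27 to 1.31, and βUCP2Tg 4 and WT 1 lie between them and the other WT arrays.

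With βUCP2Tg 4 and WT 1 both left out, which was tried after their values had been seen, *Txnip*, *Sord* and *Slc2a5* were called higher and *Arrdc4* and *Mlxip* were called lower. The lower calls came from the dimmer probes A_55_P2504175 and A_66_P102574, and the brighter probes of these genes were not called, at -0.05 for *Arrdc4* (limma adjusted p = 0.899) and -0.23 for *Mlxip* (adjusted p = 0.209). *Txnip* was at 1.29 with A_66_P131361 (limma adjusted p = 0.00758), and *Slc2a5* was at 0.64 (adjusted p = 0.0382). *Mlxipl* was at 0.56 with its brightest probe (adjusted p = 0.0204), under the limit on the fold change. In that comparison 6.73% of all tested probes were called higher and 9.25% lower. Its groups did not overlap for 7 member probes that were higher and 3 that were lower, beside 21.5% and 23.6% of all tested probes. These arrays lay nearest to the other genotype in the low-oxygen genes, so the choice of arrays was itself made on measured values.

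**Figure D4:**
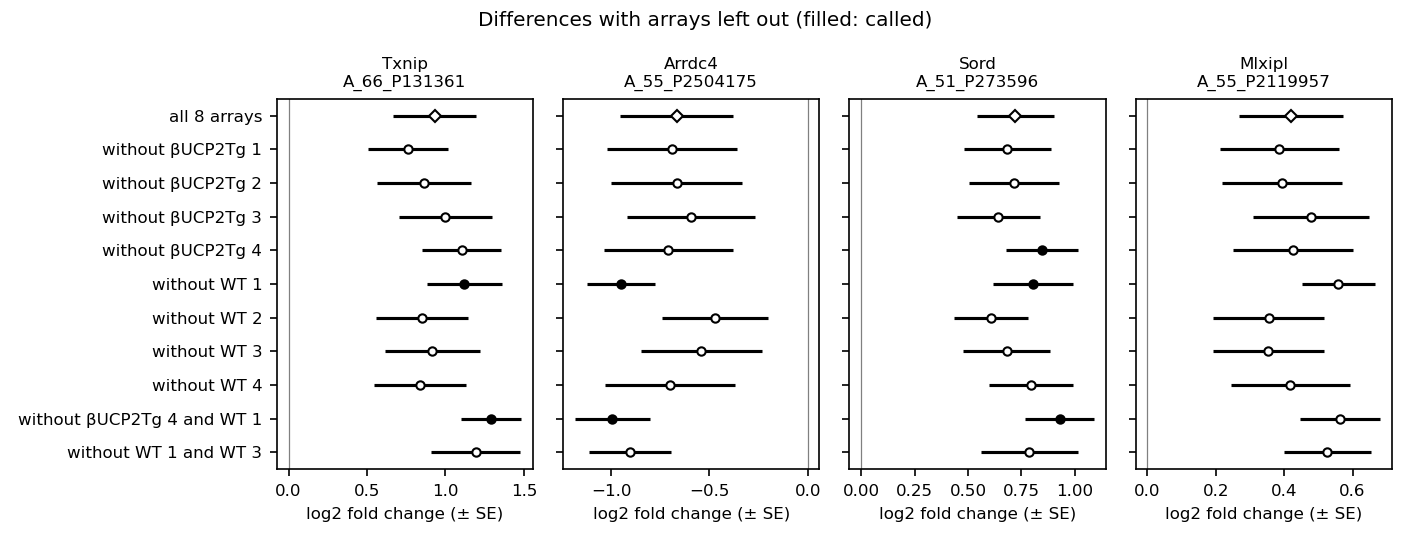
Log2 fold change (± SE) of 4 member probes with all 8 arrays and with the arrays named on the vertical axis left out. Filled points are called (limma adjusted p under 0.05 and fold change over 1.5). The open diamond of *Txnip* with all 8 arrays is at 0.93, and the filled point without βUCP2Tg 4 and WT 1 is at 1.29.

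The call of *Txnip* also depended on the background correction and on the adjustment of p. With normexp background correction *Txnip* was called higher at 0.97 (limma adjusted p = 0.0425), when 0.653% of all tested probes were called higher. The methods' t-test called no member after adjustment. Without adjustment it called *Txnip* and *Sord* higher and *Mlxip* lower, beside 2.84% and 5.17% of all probes tested that way. *Sord* and *Mlxip* were called there by their dimmer probes alone.

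Other genes that ChREBP is known to drive did not pass the test. Of 24 listed targets 23 were tested, and none was called, with 13 higher, 10 lower and a median log2 fold change of 0.02 over their brightest probes. *Fgf21*, which encodes a metabolic hormone, read -1.93, -2.33, -2.23 and -2.90 in βUCP2Tg and -3.16, -4.47, -4.45 and -5.32 in WT. Its groups did not overlap, and it had the largest difference in the list, 2.01 (SE 0.42, limma adjusted p = 0.0723). Its WT signals were dim, at a mean of -4.35, though the probe was well above background on all 8 arrays. *Fgf21* was called higher without βUCP2Tg 4, without WT 1, without either pair of arrays tried, with normexp background correction and with the methods' t-test without adjustment. *Pklr*, the liver-type pyruvate kinase and a classic target, was at 0.83 (SE 0.19, limma adjusted p = 0.0840), with a dim mean of -4.52 in WT. *Gpd1*, glycerol-3-phosphate dehydrogenase, was at 0.91 (SE 0.28, limma adjusted p = 0.115), and at 0.43 with its dimmer probe A_66_P137409 (adjusted p = 0.166). *Bhlhe40*, a transcriptional repressor, was at -1.35 (SE 0.45, limma adjusted p = 0.126). *Acacb*, an acetyl-CoA carboxylase, was at -1.21 with its brightest probe, A_66_P110803 (SE 0.31, limma adjusted p = 0.0895), and no other probe of it is described here. Without WT 1, when 5.14% of all tested probes were called higher and 5.67% lower, *Pklr* and *Gpd1* were called higher and *Bhlhe40* and *Acacb* lower. *Acacb* was also called without βUCP2Tg 4, with normexp and with the methods' t-test without adjustment, and *Pklr* in these settings other than normexp. *Pklr* was not among the 4 largest differences of its list and is named because it is the textbook target.

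In the network of Mlx and Max, the factors that share or compete for dimer partners, 9 of 10 genes were tested and none was called. The largest differences were those of *Mxd4* (0.84, limma adjusted p = 0.139), *Mxd1* (-0.64, adjusted p = 0.201), *Mxi1* (-0.58, adjusted p = 0.218) and *Mga* (-0.29, adjusted p = 0.118). Mxd1, Mxd4 and Mxi1 are repressors that pair with Max, and Mxd1 and Mxd4 also pair with Mlx. Among the other α-arrestins and the thioredoxin system that Txnip binds, 9 of 10 genes were tested and none was called. *Arrdc2* was at 0.48 (limma adjusted p = 0.145) and *Arrdc3* at -0.47 (adjusted p = 0.0992). The thioredoxin reductases *Txnrd1* and *Txnrd2* were at -0.25 and 0.25 with their brightest probes. A dimmer *Txnrd1* probe, A_55_P2740574, was at -0.65 without overlap (limma adjusted p = 0.0517), and it was called lower with a filter at all 8 arrays (0.748% of all tested probes called), with an intensity trend (1.07%), with normexp, with the methods' t-test without adjustment, without βUCP2Tg 4 and without either pair of arrays tried. Without WT 1, *Mxd4* and *Arrdc2* were also called higher and *Mxd1*, *Mxi1*, *Arrdc3* and *Txnrd1* lower. The *Arrdc3* call came from a dimmer probe, A_52_P75584, and the *Txnrd1* call from A_55_P2740574. A_52_P75584 was also called lower with normexp, with the methods' t-test without adjustment, without βUCP2Tg 4 and without both βUCP2Tg 4 and WT 1.

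Of 14 other genes of fructose, polyol and related sugar metabolism, 13 were tested, and *Aldh1b1* was called higher. *Aldh1b1* encodes a mitochondrial aldehyde dehydrogenase, which is not specific to fructose. It read -2.25, -2.03, -2.24 and -2.40 in βUCP2Tg and -3.07, -3.21, -3.17 and -2.93 in WT, so that every βUCP2Tg array was above every WT array. The log2 fold change was 0.87 (SE 0.11, limma adjusted p = 0.0364), or 1.82-fold, and the call was lost when any of βUCP2Tg 1 to 3 or WT 2 to 4 was left out. It was also lost without both WT 1 and WT 3, with normexp background correction, with the replicate block, with no filter on dim probes or a filter at 1 array, and with the methods' t-test after adjustment. *Tkfc*, which phosphorylates glyceraldehyde from fructose, was at 0.56 (limma adjusted p = 0.109), *Glyctk*, glycerate kinase, at 0.46 (adjusted p = 0.197) and *Gfpt1*, the entry enzyme of hexosamine synthesis, at -0.37 (adjusted p = 0.109). Without WT 1, *Tkfc* was also called higher and *Gfpt1* lower. The *Gfpt1* call came from its dimmer probes A_51_P393386, A_52_P479435 and A_55_P2730411. The brightest *Gfpt1* probe, whose value is given here, was called in no setting. *Akr1b7*, a relative of aldose reductase named here after its values had been seen, passed the background limit on none of the βUCP2Tg arrays and on all 4 WT arrays. It was at least 3.04-fold higher in WT, against the lowest signals measured above background. It entered the test through its WT arrays alone, so no p is given for it.

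**Figure D5:**
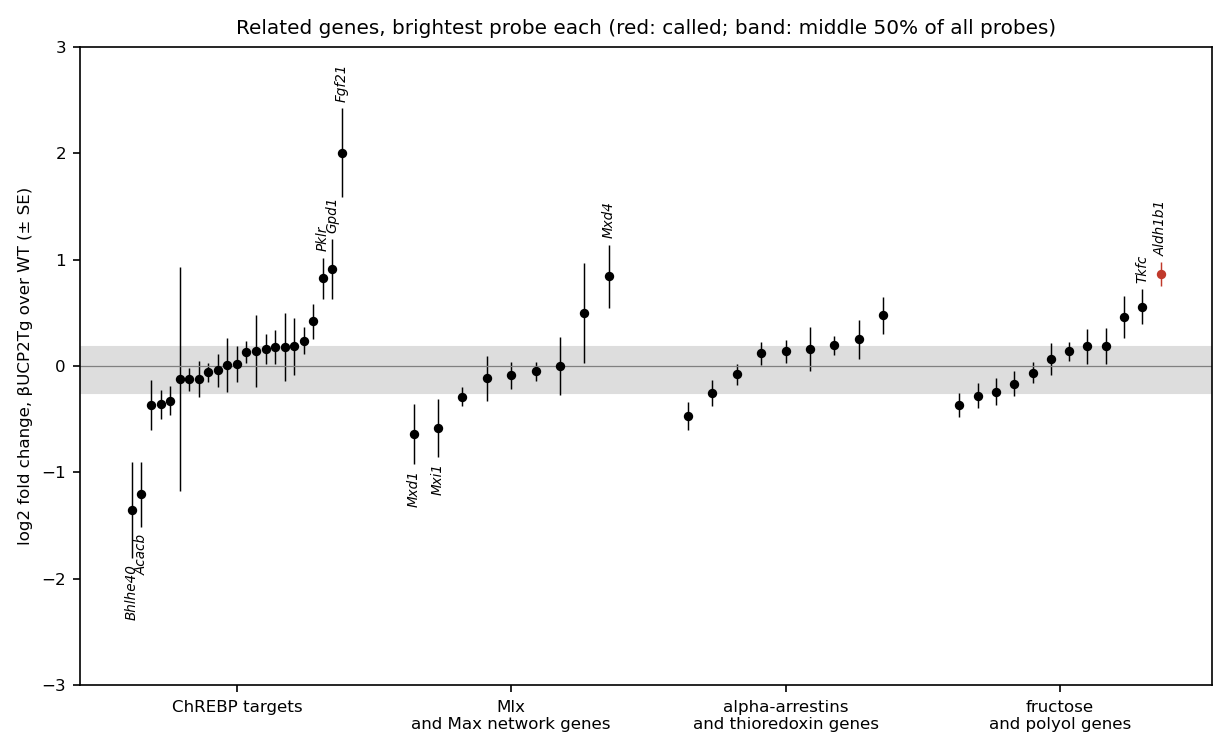
Log2 fold change (± SE) of the brightest probe of each tested gene in 4 lists of related genes, in order of size within each list. The red point, *Aldh1b1*, is the gene called, the grey band is the middle 50% of all tested probes, and *Akr1b7*, which was not well above background in βUCP2Tg, is not drawn.

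The genes whose signals ran most like those of *Txnip* and *Mlxipl* over the 8 arrays were looked up among 17847 tested genes, as a description. For *Txnip* with values centred within each genotype, they included *Supt20* (Pearson r = 0.98), *Trpv6* (a calcium channel), *Krt80* and *Nkx2-6*. Without centring they were *4930570B17Rik* (r = 0.98), *Zc3h10*, *Gas7*, *Kcnmb2* and *Wdr45*. For *Mlxipl* they were *AI464196* (r = 0.996), *2810454H06Rik*, *Cys1*, *BB116930* and *Neil1* with centring, and *Tmem198b* (r = 0.99), *Thap3*, *Hdhd2*, *Trmt10a* and *Gm6598* without. No member was among the 20 genes found in these searches, and none of the 20 was called.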

How the data were processed

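RNA from islets of 4 βUCP2Tg and 4 WT samples was hybridised to one-colour Agilent mouse arrays. The authors ran Agilent's Feature Extraction on the scans, and the deposited scanner files give a linear, background-subtracted intensity and background flags per spot. The authors' deposited table adds log2 values normalized in GeneSpring, probe sequences and gene symbols, and these log2 values equal the scanner values minus a constant for each array. That table also holds the authors' fold changes and p-values, which were not used. The headers name the build mm9, and no position of a probe is given here.

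Control spots and spots marked as outliers were left out, intensities were put on the log2 scale relative to the array's 75th percentile, and spots of a probe were averaged. A probe counted as well above background where 50% or more of its spots were flagged so, and 4 such arrays were required for testing. The genotypes were compared by limma (version 3.58.1, R 4.3.3; lmFit, then eBayes), and p-values were adjusted over 35363 probes by Benjamini and Hochberg's method. The procedure was tested on simulated data. Each array had 59305 spots that are not controls, of which 0 were saturated. Of the 56605 probes with a value, 33191 to 36320 were well above background on an array, and the number of arrays limits the precision. A member is described by the probe with the highest mean signal, with its other probes beside it. A gene of the related lists is given by that probe alone unless another is named, so disagreement among its probes may not be shown. From 4 lists of related genes, those called and then those with the largest difference among genes measured on all 8 arrays were named, up to 4 a list, and 5 genes most like *Txnip* and *Mlxipl*. The members and all lists were chosen with earlier results of these data known. Some genes that these rules select are not reported here. Plots were made in Python 3.11.15 (matplotlib 3.10.9).

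The alternatives were other filters on dim probes, quantile normalization, the percentile over probes measured on all arrays, the deposited normalized values, normexp background correction with an offset of 50, keeping outlier spots, the methods' t-test, an intensity trend in limma, dropping the fold change limit, averaging a gene's probes, blocking on the replicate number and leaving out arrays. Leaving out arrays in pairs was chosen after seeing the data. With 1 slide and 1 scan for all arrays, neither could be a block.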

Additional observations from a re-analysis of the deposited data

Results flagged for a closer look

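On the dimmer *Akr1b3* probe, A_55_P2174953, WT 3 read 0.89 and the other WT arrays read 0.65 to 0.66, so that the gap to the nearest array made up 0.954 of the range of the group. It was the single such case among 36 groups of 4 arrays examined over the 18 member probes, and chance gives about 1 in 20.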

How the results depend on the processing

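With 4 arrays per genotype, the member counts rested on single arrays. Member genes called higher, by any of their probes, were 0 with all arrays, 1 with normexp background correction, 2 with the methods' t-test without adjustment, 3 without both βUCP2Tg 4 and WT 1, and 0 to 2 when single arrays were left out. Member genes called lower were 0, then 1 with the methods' t-test without adjustment, 2 without both βUCP2Tg 4 and WT 1, and 0 to 1 when single arrays were left out. Member probes whose groups did not overlap were 3, then 1 with normexp, 0 of the gene means, 10 without both βUCP2Tg 4 and WT 1, 7 without both WT 1 and WT 3, and 3 to 7 when single arrays were left out. Over all tested probes the share without overlap was 12.4%, then 20.7% with normexp, 45.1% and 35.3% without these pairs, and 13.6% to 29.98% when single arrays were left out. Genes called in the 4 related lists were 1, then 0 with no filter on dim probes, with a filter at 1 array and with the methods' t-test adjusted, 2 with a filter at all 8 arrays, 6 with normexp (without *Aldh1b1*), 14 with the methods' t-test without adjustment, 3 with an intensity trend, 19 without both βUCP2Tg 4 and WT 1, 3 without both WT 1 and WT 3, and 0 to 17 when single arrays were left out. Without *Akr1b7*, well above background in WT alone, they were 5 with normexp and 13 with the methods' t-test without adjustment. Over all tested probes 0.41% were called, then 2.28% with normexp, 8.01% with the methods' t-test without adjustment, 15.98% without βUCP2Tg 4 and WT 1, 0.799% without WT 1 and WT 3, 10.8% without WT 1, 4.18% without βUCP2Tg 4 and 0.0228% to 0.0716% without any other single array. With the replicate number as a block, 0 related genes and 0 member genes were called, 14 probes in all beside 145 without it. Samples of one number deviated together at correlations of 0.44, -0.05, -0.01 and -0.24. Such correlations cannot tell whether samples of one number were paired when they were prepared. Among the signs of the 9 members' differences, that of *Mlxipl* turned to -0.024 in the mean of its 3 probes, and that of *Arrdc4* ran from -0.22 to 0.12 when single arrays were left out, positive without βUCP2Tg 4 (0.05) and without WT 2 (0.12). The other 7 members kept their direction in all 24 alternatives run, with *Txnip* between 0.76 and 1.29. Beyond those arrays left out, the cause was not tested.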
